A study of Bos taurus with 9 samples.

Results

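The genes described here are 10 genes of epithelia and bile ducts in cow liver: *WFDC2*, *PRAP1*, *CDH1*, *EPCAM*, *KRT7*, *KRT19*, *KRT8*, *KRT18*, *SOX9* and *SPP1*. They were taken by symbol from a count table of 28786 genes, and all 10 were listed once and passed the filter on low counts in every comparison. *WFDC2*, *PRAP1* and *CDH1* were chosen by their measured levels, which had differed between the groups of these same cows, so their differences are described without a test. The other 7 genes were chosen as markers of bile duct cells and simple epithelia, and for them the tests are given. The question was whether *WFDC2*, *PRAP1* and *CDH1* vary with the keratins of bile ducts or apart from them.

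Liver biopsies came from 9 lactating Holstein cows in 3 groups of 3, with 1 library per cow and polyadenylated RNA sequenced. The HS cows were kept under heat stress. The PF cows were kept at thermoneutrality and pair-fed, which holds their intake to that of heat-stressed cows, and the TN cows were kept at thermoneutrality without pair-feeding. The comparison of HS with PF therefore sets heat against thermoneutrality at a matched intake, and the comparison of PF with TN sets the pair-fed intake against that of TN cows at the same condition of heat.

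Bile ducts are lined by cholangiocytes, epithelial cells that modify bile and that carry keratins 7 and 19 and the adhesion molecule *EPCAM*, whereas hepatocytes carry keratins 8 and 18 as their keratin pair. Cholangiocytes make up a small part of the liver. The transcription factor *SOX9* and the secreted phosphoprotein osteopontin, encoded by *SPP1*, are known in bile duct cells, and osteopontin is also made by macrophages. *WFDC2* encodes a small secreted protein with whey acidic protein domains that is made by many glandular epithelia, *PRAP1* encodes a secreted proline-rich acidic protein of liver and gut, and *CDH1* encodes E-cadherin, the adhesion molecule of epithelial junctions. In a whole biopsy, fewer cells of a type and less RNA per cell cannot be told apart.

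*WFDC2* and *PRAP1* were also the members for which the study designed PCR primers, which are shown because they mark the transcripts on which these descriptions turn, each written 5′ to 3′. No PCR values were used here.
WFDC2 forward primer: gtcacaggctcaatcgcagt
WFDC2 reverse primer: acagtcctcatccaagacgc
PRAP1 forward primer: ggcctgacatgagaaggctcc
PRAP1 reverse primer: ccagatgagctggttgtcctt

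The libraries held between 16874444 and 22557047 counts on genes. Values are given as CPM, the counts scaled to a common library size after TMM normalization, and 3 counts, the most that a count of 0 allows, were 0.111 to 0.202 CPM. These limits cover counting error only. TN replicate 1 stood apart, with a mean correlation of 0.922 with the other libraries across genes, where the other libraries had 0.946 to 0.960. Its 16 hepatocyte markers summed to 23373 CPM, against 67664 to 146518 CPM in the other 8 cows. The share of counts on mitochondrial protein-coding genes was 3.84 to 5.68% for HS, 6.90 to 7.79% for PF and 13.6 to 22.2% for TN libraries. The part of these shares in the results below was not tested.

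The label of the set held for the bile duct genes, which were all detected in every cow, together with *CFTR* and *SCTR*, the chloride channel and the secretin receptor of cholangiocytes, which were picked here after their values were seen. *KRT23*, another keratin of the cholangiocyte list, had 0 counts in every library. The 11 listed markers of skin keratinocytes summed to 1.28 to 3.45 CPM. *KRT1*, *LOR* and *KRTDAP* had no count in any library and *KRT5* was counted in 1 of 9, whereas *KRT10* and *DSG3* were counted in all 9, up to 2.66 and 0.993 CPM. The 16 listed intestinal genes summed to 135 to 360 CPM. *CDX1*, *SI*, *ALPI* and *KRT20* had no count in any library, whereas *LGALS4*, *CDHR5*, *CDH17*, *VIL1* and *TFF3* were counted in all 9, *LGALS4* up to 274 CPM. Where members of these lists are named, they were chosen after their values were seen. Of 16 keratins outside the set, 9 had no count in any library, and the highest value of any of them was 2.66 CPM.

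*WFDC2* was higher in every HS cow than in every other cow. It was 47.4, 60.3 and 109 CPM in HS replicates 1, 2 and 3, 9.17, 3.02 and 14.9 CPM in the PF replicates, and 4.92, 18.2 and 17.0 CPM in the TN replicates. The PF and TN cows overlapped. The HS mean was 72.2 ± 32.4 CPM (SD, n = 3), the PF mean 9.04 ± 5.95 and the TN mean 13.4 ± 7.35. On the log2 scale the fold change was 2.43 (SE 0.48) between HS and TN, 2.99 (SE 0.51) between HS and PF and -0.56 (SE 0.56) between PF and TN. These differences are those for which the gene was chosen.

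*PRAP1* was highest in the TN cows, and it varied most there. It was 440 CPM in TN replicate 1, 20.7 in TN replicate 2 and 108 in TN replicate 3, against 15.9, 14.8 and 8.61 CPM in the HS replicates and 3.37, 12.1 and 9.32 CPM in the PF replicates. The lowest TN cow was above every HS and PF cow, and the HS and PF cows overlapped. The highest TN cow had 21.3 times the level of the lowest. Its log2 fold change was -3.89 (SE 0.91) between HS and TN, -4.53 (SE 0.92) between PF and TN and 0.67 (SE 0.42) between HS and PF. Without TN replicate 1, the library that stood apart, the first was -2.29 and the second -2.95, a smaller difference in the same direction. By RefSeq's annotation of assembly ARS-UCD2.0, newer than that of the counts, *PRAP1* lies between *FUOM* and *CALY* and overlaps *SORCS3*. It was the only member that overlapped another gene. The strand setting of the counting is not given in the sources used here, so reads of the overlapping genes cannot be told apart.

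*CDH1* was lowest in the TN cows, the opposite of *PRAP1*. It was 9.59, 3.97 and 4.98 CPM in the HS replicates, 5.38, 5.64 and 4.79 CPM in the PF replicates and 0.850, 2.28 and 2.32 CPM in the TN replicates. Every HS and PF cow was above every TN cow, while the HS cows lay on both sides of the PF cows. These levels rest on 19 to 260 counts per library. Its log2 fold change was 1.77 (SE 0.51) between HS and TN, 1.54 (SE 0.47) between PF and TN and 0.24 (SE 0.37) between HS and PF. The HS and PF groups are each compared with the same 3 TN cows. Without HS replicate 1, the value between HS and PF was -0.25.

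Each of the 3 genes thus had its own order of groups. *WFDC2* set HS apart from both thermoneutral groups, whereas *PRAP1* and *CDH1* set TN apart from both other groups, in opposite directions.

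**Figure D1:**
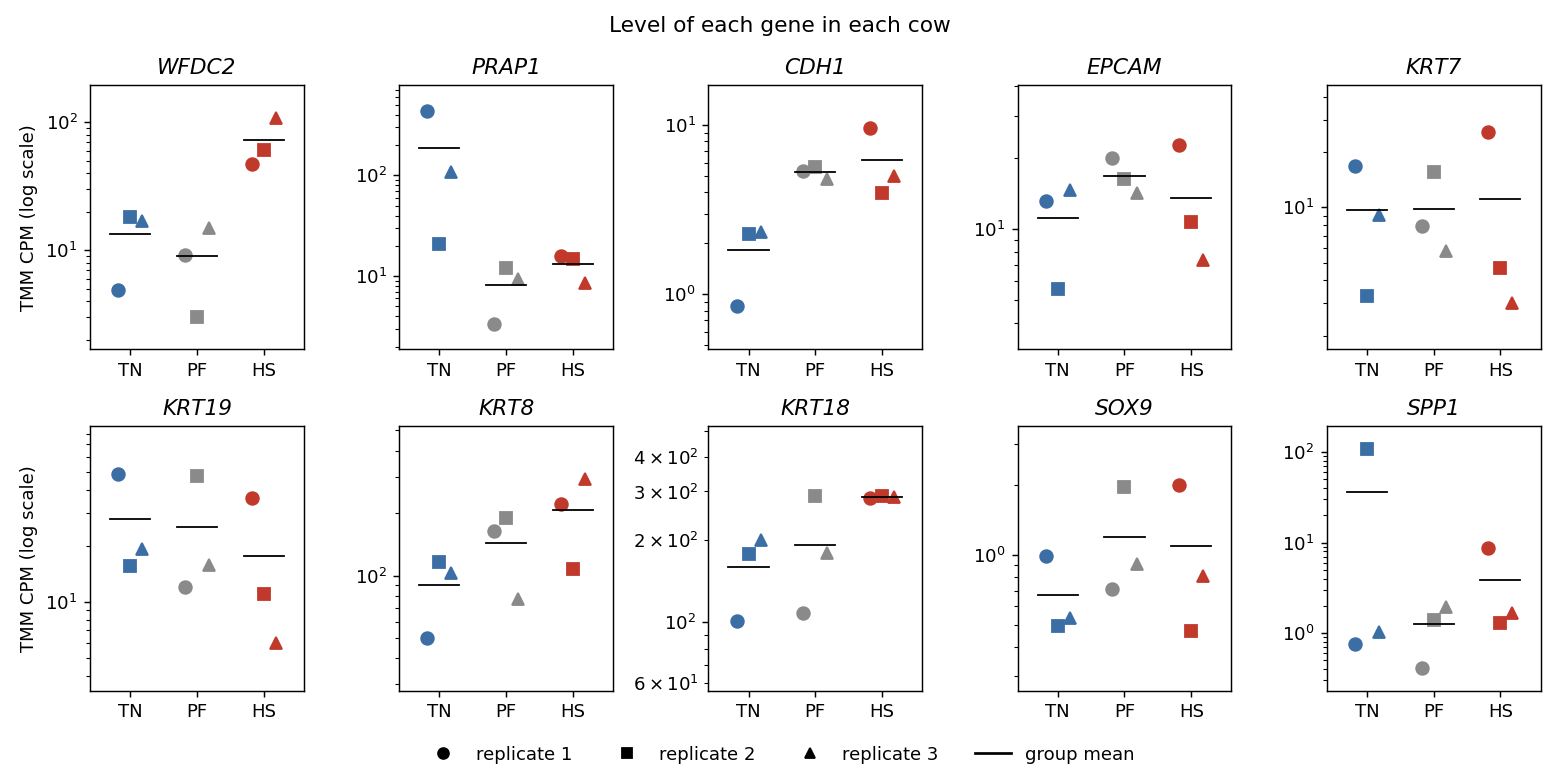
Level of each of the 10 members in each cow, in TMM-normalized CPM on a log axis, with 1 symbol per cow, coloured by group and shaped by replicate, and a line at the group mean. WFDC2 lies above both other groups in all 3 HS cows, PRAP1 is highest and CDH1 lowest in TN cows, and the 3 groups overlap for KRT7, KRT19, EPCAM and SOX9.

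The keratins of the bile duct overlapped between all groups. *KRT19*, an acidic type I keratin, was 36.1, 10.98 and 5.98 CPM in the HS replicates, 11.9, 47.5 and 15.7 CPM in the PF replicates and 48.7, 15.6 and 19.2 CPM in the TN replicates. One cow of each group, HS replicate 1, PF replicate 2 and TN replicate 1, was well above the other cows of its group. The mean was 17.7 ± 16.1 CPM for HS, 25.0 ± 19.5 CPM for PF and 27.8 ± 18.2 CPM for TN (SD, n = 3). The log2 fold change between HS and TN was -0.67, with a 95% interval from -2.09 to 0.74 (edgeR quasi-likelihood test, FDR = 0.722).

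*KRT7*, its basic type II partner in ducts, was 25.8, 4.67 and 3.03 CPM in the HS replicates, 7.93, 15.5 and 5.75 CPM in the PF replicates and 16.8, 3.27 and 9.06 CPM in the TN replicates. The same 3 cows were the highest of their groups. The groups overlapped fully, and the log2 fold change between HS and TN was 0.18, with a 95% interval from -1.56 to 1.92 (edgeR, FDR = 0.945). The counts of *KRT7* were between 0.209 and 0.714 of those of *KRT19* in all 9 cows.

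*EPCAM* was steadier. It was 22.5, 10.6 and 7.40 CPM in the HS replicates, 19.9, 16.2 and 14.2 CPM in the PF replicates and 13.1, 5.56 and 14.5 CPM in the TN replicates. The PF cows varied least, over a 1.40-fold range. Between HS and TN the log2 fold change was 0.27, with a 95% interval from -0.76 to 1.30 (edgeR, FDR = 0.848), and between PF and TN it was 0.59, from -0.18 to 1.36 (edgeR, FDR = 0.709).

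*SOX9* was low in all cows, at 1.99, 0.467 and 0.807 CPM in the HS replicates, 0.710, 1.95 and 0.917 CPM in the PF replicates and 0.984, 0.494 and 0.536 CPM in the TN replicates. These values rest on 8 to 54 counts per library, and the highest cow of each group was again the one with the highest *KRT19*. The log2 fold change between HS and TN was 0.68, with a 95% interval from -0.93 to 2.29 (edgeR, FDR = 0.753).

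*KRT8* and *KRT18*, the keratin pair that hepatocytes share with ducts, had their highest group means in HS cows. *KRT8* was 220, 108 and 291 CPM in the HS replicates, 164, 189 and 77.4 CPM in the PF replicates and 50.2, 116 and 103 CPM in the TN replicates. HS replicate 2 lay among the TN cows, so the groups overlapped. Between HS and TN its log2 fold change was 1.19 (SE 0.43), with an unadjusted p of 0.0194 (edgeR, FDR = 0.468).

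*KRT18* was 285, 288 and 285 CPM in the HS replicates, 108, 288 and 178 CPM in the PF replicates and 101, 177 and 199 CPM in the TN replicates. The 3 HS cows lay within a 1.01-fold range and above all TN cows, whereas PF replicate 2 was as high as the HS cows. Its log2 fold change between HS and TN was 0.83 (SE 0.31), with an unadjusted p of 0.0249 (edgeR, FDR = 0.480). Neither keratin passed the FDR threshold. These keratins have processed copies in mammalian genomes, and how reads that fit several places were counted is not given in the sources used here, so their levels are uncertain to that extent.

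*SPP1* was high in a single cow. It was 108 CPM, or 1748 counts, in TN replicate 2, and between 0.414 and 8.71 CPM in the other 8 cows. The second highest value, 8.71 CPM, was in HS replicate 1. Its log2 fold change was -3.18 (SE 1.56) between HS and TN (edgeR, FDR = 0.537) and -4.85 (SE 1.53) between PF and TN (edgeR, FDR = 0.695). Without TN replicate 2 these values turned to 2.14 and 0.50. The direction of *SPP1* against TN thus rests on that cow. Between HS and PF its log2 fold change was 1.64 (SE 0.78), and 0.22 without HS replicate 1.

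Between HS and TN, edgeR called 0 of the 10 members, a call being a fold change over 1.5 with an FDR under 0.1, where 0.0892% of the 14582 genes tested were called. At an unadjusted p under 0.05 there were 5 members, where 9.36% of all genes had such a p, and 3 of the 5 were the genes chosen for their differences. The other 2 were *KRT8* and *KRT18*. DESeq2, another test on the same counts, called 3 members, which were *WFDC2*, *PRAP1* and *CDH1*, and it called 1.75% of all genes. The groups did not overlap for *WFDC2*, *CDH1* and *KRT18*, which were higher in HS, and for *PRAP1*, which was lower, and they did not overlap for 16.1% of all genes tested. Nothing is read from the counts of *WFDC2*, *PRAP1* and *CDH1*, which were chosen for such differences.

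Between HS and PF, edgeR called 0 of the 10 members, where 0.0276% of 14510 genes were called. Only *WFDC2* among the members had an unadjusted p under 0.05, as 5.32% of all genes did, only *WFDC2* was called by DESeq2, which called 0.771% of all genes, and only *WFDC2* had groups that did not overlap, as 10.5% of all genes did. As *WFDC2* was chosen for this difference, nothing is read from these counts. For the 7 bile duct and keratin members the log2 fold changes were between -0.49 and 1.64, and the smallest FDR was 0.949 (edgeR).

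Between PF and TN, edgeR called 0 of the 10 members and 0% of 14580 genes. *PRAP1*, *CDH1* and *SPP1* had an unadjusted p under 0.05, as did 6.88% of all genes. DESeq2 called *PRAP1* alone among the members and 0.555% of all genes. The groups did not overlap for *PRAP1* and *CDH1* and for 13.2% of all genes. As both were chosen for their differences, nothing is read from their counts. The smallest FDR of the 7 other members was 0.695 for *SPP1* (edgeR). None of these 7 members was called by either tool in any comparison, although DESeq2 gave *SPP1* no adjusted p in the comparisons with TN. With 3 cows per group, this does not show that they were alike between the groups.

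**Figure D2:**
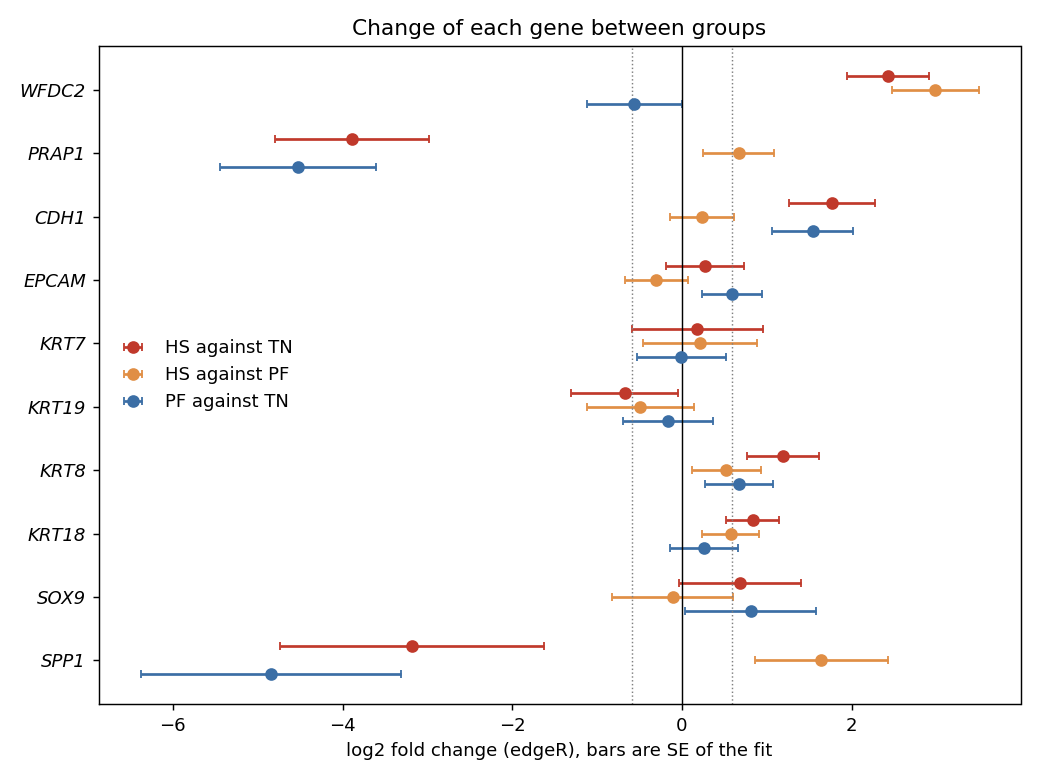
Log2 fold change of each member in the 3 comparisons of groups, with bars for the SE from the edgeR fit of that comparison (n = 3 cows per group) and dotted lines at a fold change of 1.5 in each direction. WFDC2, PRAP1 and CDH1 were chosen for differences of this kind, and of the other 7 members SPP1 lies farthest from 0, at -4.85 between PF and TN, with the widest SE (1.56 between HS and TN).

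To ask which members varied together from cow to cow, each value of log2 (CPM + 0.5) was set against the mean of its group, so that the differences between groups for which the 3 genes were chosen did not enter. Each of *WFDC2*, *PRAP1* and *CDH1* was correlated with each of the 7 other members in these 21 pairs, with an exact two-sided permutation of the cows within groups and Benjamini-Hochberg adjustment over the pairs. The smallest p that this test allows is 0.00463. No pair passed an adjusted p of 0.1, and 4 had an unadjusted p under 0.05. Those were the pairs of *KRT19* and *KRT7* with *WFDC2* and with *PRAP1*.

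The correlations of *WFDC2* with the duct keratins were negative, although none passed after adjustment. In each of the 3 groups, the cow with the highest *KRT19* had the lowest *WFDC2* of its group. Over the 9 cows, Pearson's r within groups was -0.86 with *KRT19* (exact permutation p = 0.0139, adjusted p = 0.227) and Spearman's rho was -0.78 (exact permutation p = 0.0417, adjusted p = 0.316). Without the 2 cows whose *KRT19* was farthest from the median of these deviations, r was -0.87, and with each cow left out in turn it was between -0.93 and -0.79. Among the 6 cows that did not have the highest *KRT19* of their group, r was -0.27, so that the relation rests on the difference between the top cow and the other cows of each group. With *KRT7*, r was -0.76 (exact permutation p = 0.0231, adjusted p = 0.227) and rho -0.72 (exact permutation p = 0.0463, adjusted p = 0.316). The values with *SOX9* and *EPCAM* were -0.68 and -0.46, while those with *KRT8* and *KRT18* were 0.13 and 0.00. With each cow left out in turn these values moved between -0.32 and 0.58 and between -0.58 and 0.81, and without the 2 cows farthest from the median of the keratin in question they were 0.73 and 0.83, so that their sign is not settled by these cows.

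Those of *PRAP1* with the duct keratins were positive, and none passed after adjustment either. Its highest value in each of the 3 groups was in the cow with the highest *KRT19*, and r was 0.66 with *KRT19* (exact permutation p = 0.0324, adjusted p = 0.227), with a rho of 0.73 (exact permutation p = 0.0139, adjusted p = 0.292). Among the 6 other cows r was 0.46. With *KRT7*, r was 0.65 (exact permutation p = 0.0463, adjusted p = 0.243) and rho was 0.68 (exact permutation p = 0.0602, adjusted p = 0.316). Without the 2 cows farthest from the median of the keratin in question, the values of r were 0.89 with *KRT19* and 0.74 with *KRT7*. With *SOX9* and *EPCAM* the r of *PRAP1* was 0.49 and 0.55, while with *KRT8*, *KRT18* and *SPP1* it was -0.56, -0.12 and -0.67. With each cow left out in turn, the r with *KRT18* moved between -0.56 and 0.64 and that with *SPP1* between -0.80 and 0.35. Their sign is thus not settled by these cows. Without the 2 cows farthest from the median of *EPCAM*, the r with *EPCAM* was -0.31. *PRAP1* and *WFDC2* had an r of -0.67 with each other, given here as a description.

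The values of *CDH1* with the duct keratins were near 0. Its r was 0.13 with *KRT19* (exact permutation p = 0.778, adjusted p = 0.860; rho = 0.22, exact permutation p = 0.681, adjusted p = 0.841) and 0.23 with *KRT7* (exact permutation p = 0.704, adjusted p = 0.860; rho = 0.23, exact permutation p = 0.745, adjusted p = 0.870). Leaving out 1 cow moved the r with *KRT19* between -0.57 and 0.71, so that its sign is not settled by these cows, and without the 2 cows farthest from the median of *KRT19* it was -0.96. Its highest value among the 7 was 0.65 with *KRT8* (exact permutation p = 0.134, adjusted p = 0.403), with a rho of 0.30 (exact permutation p = 0.551, adjusted p = 0.784).

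**Figure D3:**
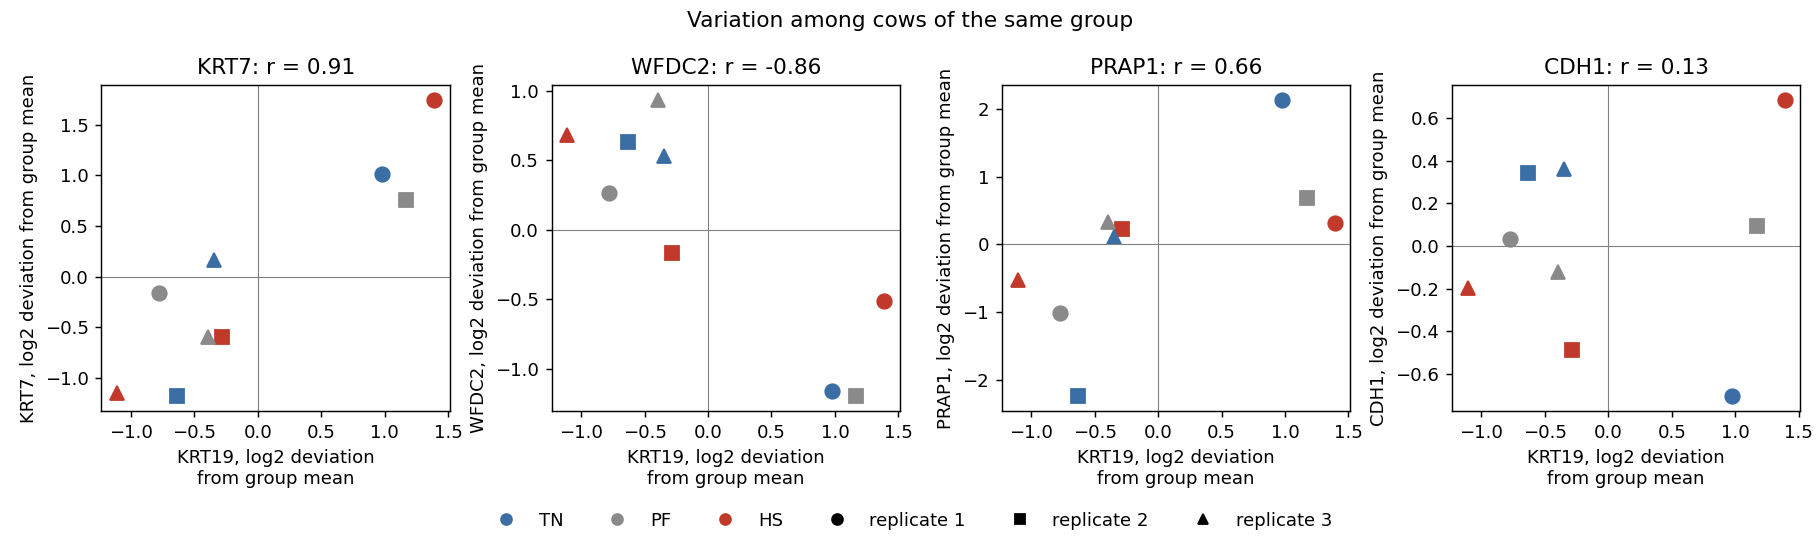
Level of KRT7, WFDC2, PRAP1 and CDH1 against KRT19 in each cow, as the difference of log2 (CPM + 0.5) from the mean of its group, with 1 symbol per cow, coloured by group and shaped by replicate. The 3 cows on the right, 1 of each group, have the lowest WFDC2 and the highest PRAP1 of their groups, whereas CDH1 shows no common direction (r with KRT19 was 0.91 for KRT7, -0.86 for WFDC2, 0.66 for PRAP1 and 0.13 for CDH1).

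Among the 7 other members, the duct keratins, *EPCAM* and *SOX9* had positive correlations with each other. As descriptions over the same 9 cows, the r within groups was 0.91 between *KRT7* and *KRT19*, 0.89 between *KRT19* and *SOX9*, 0.88 between *EPCAM* and *KRT7* and 0.63 between *EPCAM* and *KRT19*. Among the 6 cows that did not have the highest *KRT19* of their group, the r with *KRT19* was 0.50 for *KRT7* and 0.45 for *EPCAM*. For *SOX9* it was -0.30, so that its relation with *KRT19* rests on the top cow of each group. *KRT8* had an r of -0.14 with *KRT19* and -0.06 with *KRT7*, and *KRT18* had 0.16 and -0.04. *KRT8* and *KRT18*, which pair in 1 filament, had an r of 0.36. *SPP1* was near 0 with *KRT19*, at -0.04.

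**Figure D4:**
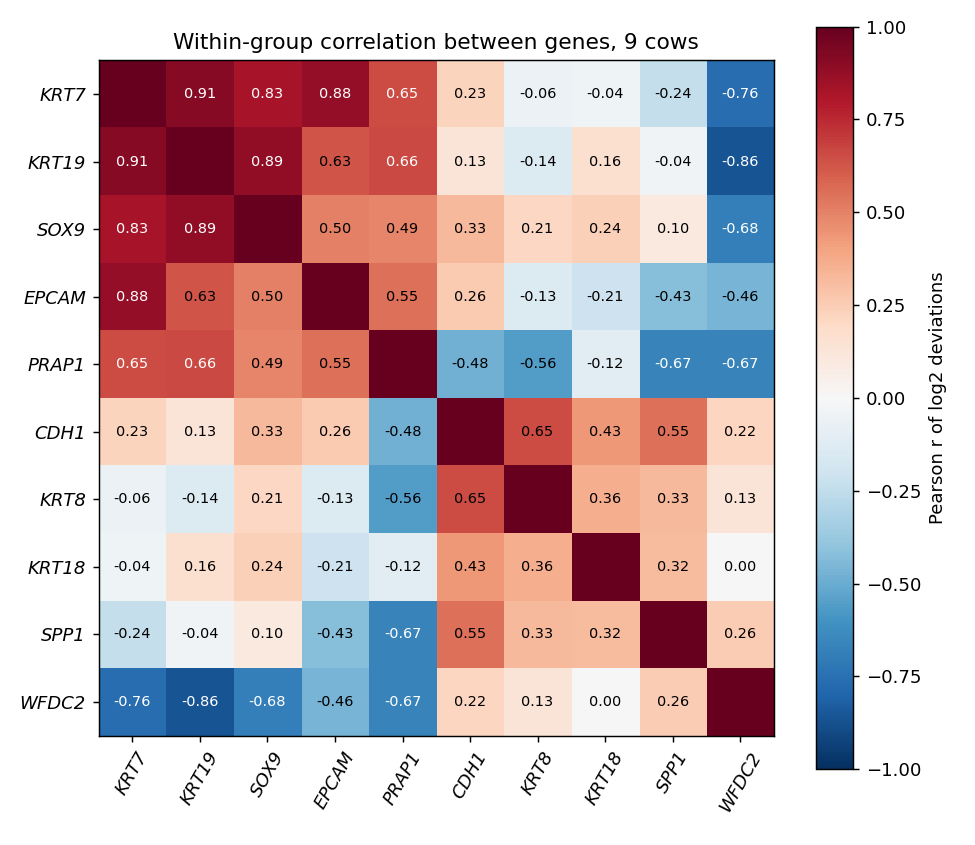
Pearson's r between the members over the 9 cows after centring each gene on its group means, with positive values in red, negative values in blue and the diagonal at 1. KRT7, KRT19, SOX9 and EPCAM are positive with each other (0.50 to 0.91), and WFDC2 is negative with all 4 of them (-0.86 to -0.46).

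The same cows stood out in the wider list of cholangiocyte genes, which does not contain the members. Of 32 such genes, 31 were listed and 23 passed the filter over all libraries. Within groups, *KRT19* was positively correlated with 20 of the 23, with a median r of 0.56, and over all other genes tested it was positive with 48.3%. *WFDC2* was positive with 4 of the 23, with a median r of -0.42, where it was positive with 54.6% of all other genes. *PRAP1* was positive with 18 of the 23 (median 0.39), where it was positive with 48.4% of all other genes. *CDH1* was positive with 14 of the 23 (median 0.14), or 60.9%, near its 53.6% of all other genes. *KRT19* was as positive with other cells: with 11 of 11 endothelial (median 0.57), 12 of 14 stellate (0.60) and 4 of 4 mesothelial markers (0.45). *WFDC2* was positive with 0 of these 11 (median -0.47), 2 of the 14 (-0.45) and 0 of the 4 (-0.32). The pattern of *KRT19* and *WFDC2* was thus not particular to cholangiocyte genes. All these values share the same libraries and are descriptions. *CFTR*, *SCTR* and the Kunitz-type protease inhibitors *SPINT1* and *SPINT2* of epithelia had r of 0.83, 0.93, 0.94 and 0.97 with *KRT19*, and of -0.68, -0.71, -0.78 and -0.85 with *WFDC2*. On the list of whey acidic protein and inhibitor genes that holds *SPINT1* and *SPINT2*, *KRT19* was positive with 3 of 6, with a median r of -0.00098. There *ANOS1* and *WFDC18* went the other way, at -0.91 and -0.79 with *KRT19* and 0.86 and 0.63 with *WFDC2*. Apart from *SPINT2* and *WFDC18*, these genes were named after their values were seen. The secretin receptor *SCTR* was 15.8, 4.85 and 2.69 CPM in the HS replicates, 4.32, 9.83 and 8.30 CPM in the PF replicates and 17.6, 4.75 and 6.26 CPM in the TN replicates. HS replicate 1, PF replicate 2 and TN replicate 1 were again the highest of their groups.

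Some markers of other cells were also highest in the same 3 cows. The summed level of 31 cholangiocyte genes was 1110, 1004 and 877 CPM in HS replicate 1, PF replicate 2 and TN replicate 1, and 741 to 887 CPM in the other cows. The 9 listed mesothelial markers, of the layer that covers the liver, summed to 45.2, 23.3 and 44.1 CPM in those cows and to 12.7 to 21.1 CPM in the others. Mesothelin, encoded by *MSLN*, made up most of this in these cows, at 34.6 CPM in HS replicate 1, 14.35 CPM in PF replicate 2 and 29.6 CPM in TN replicate 1. Of the other listed markers, *WT1* and *UPK1B* were at 0 counts in 6 of 9 libraries each and reached 0.102 and 0.671 CPM at most. *UPK3B*, *PKHD1L1* and *ALDH1A2* were counted in all 9, up to 10.4, 2.80 and 5.30 CPM. *UPK3B* was highest in TN replicate 1, HS replicate 2 (4.97 CPM) and PF replicate 1 (5.56 CPM) of their groups. These markers were named after their values were seen. The sum of the 12 endothelial markers, like the mesothelial sum, was highest in each group in the same 3 cows, at 1332, 1198 and 1201 CPM. Of the hepatocyte sums, the lowest of HS was in HS replicate 1 and the lowest of TN in TN replicate 1, whereas PF replicate 2 was between the other PF cows. Other lists followed these cows only in part. The stellate sum was highest in HS replicate 1 (631 CPM), PF replicate 1 (560 CPM) and TN replicate 2 (654 CPM). For macrophages it was highest in HS replicate 3 (4101 CPM), PF replicate 2 (2251 CPM) and TN replicate 2 (3770 CPM). The lymphocyte sum was highest in HS replicate 1 (213 CPM), PF replicate 1 (224 CPM) and TN replicate 1 (255 CPM). The part of these other cells in the relations of *WFDC2* and *PRAP1* with *KRT19* was not tested.

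**Figure D5:**
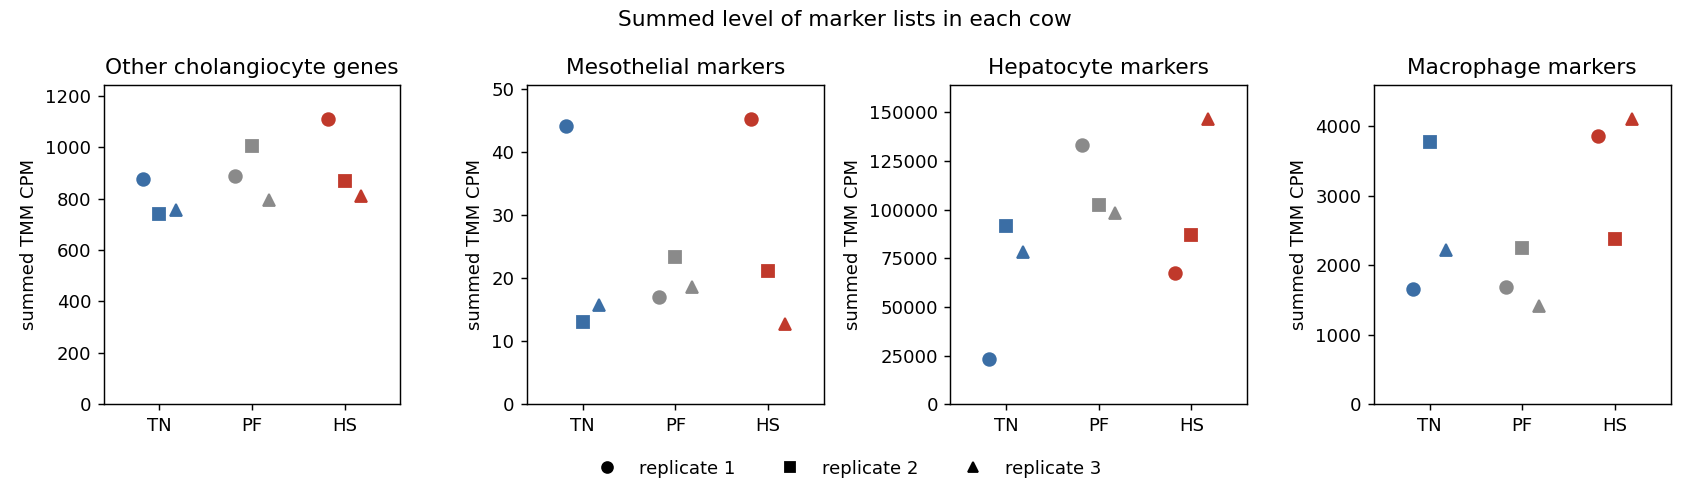
Summed level of cholangiocyte, mesothelial, hepatocyte and macrophage marker lists in each cow, in TMM-normalized CPM, with 1 symbol per cow, coloured by group and shaped by replicate. The cholangiocyte and mesothelial sums are highest in HS replicate 1, PF replicate 2 and TN replicate 1 of their groups, and the hepatocyte sum is lowest in TN replicate 1 (23373 CPM).

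The other cholangiocyte genes were also compared between the groups. Of 21 tested between HS and TN, edgeR called 0, with 2 at an unadjusted p under 0.05, near the 9.36% of all genes, and 1 called by DESeq2, where 1.75% of all genes were. There were 13 higher and 8 lower in HS, with a median log2 fold change of 0.17 against -0.01 over all genes. Between HS and PF, 22 were tested, with 0 called by edgeR, 3 at an unadjusted p under 0.05 (5.32% of all genes), 2 called by DESeq2 (0.771% of all genes) and a median of 0.06 against 0.01. Between PF and TN there were 11 higher and 11 lower of 22, with 0 called by either tool, 0 at an unadjusted p under 0.05 and a median of 0.00 against -0.01.

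*CLDN4*, which encodes a claudin of tight junctions, had the highest value of that list between HS and TN. It was 15.6, 12.7 and 4.98 CPM in the HS replicates, 0.355, 2.74 and 3.51 CPM in the PF replicates and 3.62, 3.02 and 4.53 CPM in the TN replicates. Every HS cow was above every other cow, although HS replicate 3 was close to the highest TN cow. The log2 fold change was 1.56 (SE 0.42) between HS and TN (edgeR, FDR = 0.352). DESeq2 called it there and between HS and PF, where it also called *GGT1*, a gamma-glutamyltransferase gene named after its values were seen.

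E-cadherin works with the catenins, tight junction and desmosome proteins, and 31 genes of such junctions other than *CDH1* were tested between HS and TN. Of these, 22 were higher and 9 lower in HS, with a median log2 fold change of 0.17. edgeR called 0, and 4 had an unadjusted p under 0.05, near the 9.36% of all genes. DESeq2 called 3, where it called 1.75% of all genes. In 6 of the 31 genes every HS cow was higher than every TN cow, where this held for 8.37% of all genes. The 4 genes with a low p were *GJB1*, the main gap junction protein of hepatocytes, at a log2 fold change of 1.26 (SE 0.46), the claudin gene *CLDN7* at 1.07 (SE 0.29), the desmoplakin gene *DSP* at 1.02 (SE 0.24) and the desmocollin gene *DSC2* at 0.67 (SE 0.24). Their FDR was between 0.280 and 0.471 (edgeR). *CLDN7* and *DSC2* were named after their values were seen. *MARVELD3*, a tight junction gene, was the lowest at -1.60 (SE 1.07).

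*DSP*, which anchors keratin filaments at desmosomes, was 50.0, 48.5 and 67.0 CPM in the HS replicates, 42.4, 31.4 and 33.2 CPM in the PF replicates and 20.2, 30.7 and 29.7 CPM in the TN replicates. The HS cows were above all others. Between HS and PF, 15 of 32 junction genes were higher in HS and 17 lower, with a median log2 fold change of -0.01. Of these, 0 were called by edgeR or DESeq2 (0.0276% and 0.771% of all genes), and 1 had an unadjusted p under 0.05 (5.32% of all genes). Between PF and TN, 21 of 32 junction genes were higher in PF and 11 lower. There 0 were called by edgeR and by DESeq2 (0% and 0.555% of all genes), and 2 had an unadjusted p under 0.05 (6.88% of all genes).

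Few relatives of *WFDC2* could be tested. Of 20 listed genes of whey acidic protein and Kunitz or Kazal inhibitor families, 17 were in the table and 6 were tested between HS and TN. Of these, 3 were higher, 3 lower and 0 called by edgeR or DESeq2, with 1 at an unadjusted p under 0.05 (9.36% of all genes). *WFDC18* was the highest, at 2.21, 8.30 and 7.66 CPM in the HS replicates, 8.93, 2.62 and 2.24 CPM in the PF replicates and 0, 3.46 and 2.44 CPM in the TN replicates, so that HS and TN overlapped. *WFDC1* was the lowest, with a log2 fold change of -0.76 (SE 0.29; edgeR, FDR = 0.480).

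Genes of the Notch and YAP pathways, which direct bile duct formation, numbered 23 tested between HS and TN, with 8 higher, 15 lower, 0 called by either tool and 0 at an unadjusted p under 0.05. The highest was *ONECUT1*, a transcription factor of liver and duct development, at 0.85 (SE 0.57), and the lowest was *HEYL*, a Notch target, at -1.18 (SE 0.55). Of the 13 tested receptors and relatives of osteopontin, 8 were higher and 5 lower. Either tool called 0, and 1 had an unadjusted p under 0.05 (9.36% of all genes). The highest was *TNC*, a matrix protein, at 0.99 (SE 0.54), and the lowest the integrin gene *ITGA4* at -1.10 (SE 0.32; edgeR, FDR = 0.392).

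*SPP1* was set beside macrophage markers, since macrophages also make osteopontin. Within groups its r was positive with 14 of 14 macrophage markers, with a median of 0.74. *SPP1* was positive with 12 of 23 cholangiocyte genes, with a median of 0.11, where it was positive with 54.2% of all other genes. It was also positive with 12 of 14 stellate (median 0.44) and 9 of 11 endothelial markers (0.41). *KRT8* and *CDH1* were likewise positive with 14 of 14 macrophage markers (medians 0.67 and 0.53), and *PRAP1* with 0 of 14. A positive r with all 14 was thus not particular to *SPP1*. TN replicate 2, the cow with the high *SPP1*, had the highest macrophage sum of its group, at 3770 CPM against 1661 and 2220 CPM. *SPP1* lay farthest from its group mean in that cow, so its values of r rest largely on it. In HS the highest *SPP1* was in replicate 1 and the highest macrophage sum in replicate 3. In PF they were in replicate 3 and replicate 2. The macrophage sum was 2371 to 4101 CPM in HS and 1417 to 2251 CPM in PF cows, without overlap. Its part in *SPP1*, *WFDC2* or the keratins was not tested. Between HS and PF, all 13 tested macrophage markers were higher in HS, 10 of them at an unadjusted p under 0.05 (5.32% of all genes). Of the 13, 0 were called by edgeR or DESeq2 (0.0276% and 0.771% of all genes).

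The genes whose levels were most like each member were named by the highest Pearson's r over the 9 cows with no centring, among 13553 genes with a mean of at least 1 CPM. For *WFDC2* they were *FAM83G* (r = 0.96), the transcription factor gene *ATOH8* (0.96), the methyltransferase gene *INMT* (0.94), the protocadherin gene *PCDH19* (0.94) and the adaptor gene *TRADD* (0.93). *INMT* was 33.5, 46.2 and 56.4 CPM in the HS replicates, 3.96, 3.07 and 21.4 CPM in the PF replicates and 2.91, 13.9 and 7.45 CPM in the TN replicates.

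For *PRAP1* the nearest were *LOC112442610* (r = 0.97), *DOCK6* (0.97), the dynein heavy chain gene *DYNC1H1* (0.97), *GGA3* (0.96) and *FBXO6* (0.95). *DOCK6* was 183, 58.5 and 154 CPM in the TN replicates and 29.5 to 44.3 CPM in the other 6 cows. For *CDH1* they were the acetyltransferase gene *NAA50* (0.96), *BABAM1* (0.96), *ELP5* (0.95), the glycosyltransferase gene *GALNT2* (0.94) and the calcium pump gene *ATP2A2* (0.94), and none of these is a junction gene.

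For *KRT19* they were *SYT11* (r = 0.96), the matrix Gla protein gene *MGP* (0.95), *FHL2* (0.94), *SEPT4* (0.94) and *SPINT2* (0.93). *MGP* was 116, 32.3 and 19.9 CPM in the HS replicates, 28.0, 93.5 and 45.4 CPM in the PF replicates and 97.3, 27.0 and 43.8 CPM in the TN replicates. The same 3 cows were its highest. With no centring, the differences between groups for which *WFDC2*, *PRAP1* and *CDH1* were chosen enter these lists. No gene appeared among the nearest of more than 1 of the 4 members, but nothing is read from this. The lists share the libraries and their depth.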

How the data were processed

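Liver RNA of 9 Holstein cows was analysed, 3 in each of the HS, PF and TN groups given by the labels. The deposited values are the authors' raw read counts per gene, without normalization. Reads had been filtered with fastp 0.23.2, aligned to ARS-UCD1.2 with STAR 2.7.9a and counted with featureCounts 2.0.3, per the submitters' processing notes and the study's methods. The annotation release, strand setting and treatment of multi-mapped reads are not given in the sources used here. All 9 columns were mapped to a cow and 0 were left out.

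Each pair of groups was fitted with edgeR 4.0.16 in R 4.3.3 (TMM, filterByExpr, quasi-likelihood F test, p-values adjusted by Benjamini-Hochberg over the genes tested). A call needed a fold change over 1.5 at an FDR under 0.1, and intervals used the fit's own degrees of freedom. Each group had 3 cows, and a p-value sets the difference between groups against the spread between cows, which the fit estimates partly across genes. DESeq2 1.42.0 was an alternative, run on the same 2 groups. The fits and the correlations were first tested on simulated data.

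The members and lists were chosen with earlier results of these data known. Of 276 list symbols, 268 were in the table, 3 of them under an older name. Named were the members, the called genes and the highest and lowest gene of a list between HS and TN (of the lists of skin, intestinal, pancreatic, hepatocyte, stellate, endothelial, lymphocyte and mesothelial markers only those bearing on a member), and the 5 genes nearest to 4 of the members, all with a mean of at least 1 CPM. One gene that this rule would name is left out and not reported here. Genes named otherwise are said to be chosen after their values were seen, or mark a cell type. RefSeq symbols of ARS-UCD2.0 matched 24366 of 28786 genes and gave neighbours only. Other alternatives were RLE size factors, mitochondrial genes left out, no filter or at least 10 counts per sample, 1 fit of all libraries, an FDR under 0.05, glmTreat, the replicate number as a block, an offset of 2 CPM, and each cow left out.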

Additional observations from a re-analysis of the deposited data

How the results depend on the processing

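Between HS and TN, the 0 members called by edgeR became 3 with DESeq2 (*WFDC2*, *PRAP1* and *CDH1*), 2 without a filter on low counts (*WFDC2* and *PRAP1*) and 1 with the replicate number as a block (*WFDC2*), and 0 to 1 with a cow left out, the 1 being *PRAP1* without TN replicate 2. Between HS and PF they became 1 (*WFDC2*) with DESeq2, without a filter and with the block, and 0 to 1 with a cow left out, the 1 being *WFDC2* without PF replicate 3. Between PF and TN they became 1 with DESeq2 (*PRAP1*), 2 without a filter (*PRAP1* and *SPP1*) and 0 to 1 with a cow left out, the 1 being *PRAP1* without TN replicate 2. The other settings gave 0 in each comparison. The cholangiocyte genes called went from 0 to 1 with DESeq2 between HS and TN, and from 0 to 2 with DESeq2 and 1 without a filter between HS and PF. The causes were not tested. None of the 21 within-group pairs passed under any alternative, but with 1 or 2 cows left out too few permutations remain for a single pair to pass, so those runs say nothing of stability. The number on a cow marks no shared animal or day in the labels: same-numbered cows of 2 groups had deviations correlated at -0.22 to 0.24, so the replicate block is an alternative only, and no cow was paired with another.

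Directions changed for members near 0, and for *SPP1* when TN replicate 2 was left out. For *KRT7* the log2 fold change between HS and TN was -0.12 and that between HS and PF -0.34 with the replicate block, and that between PF and TN was 0.0092 with DESeq2, 0.00086 with RLE size factors, 0.013 without a filter and 0.072 with the block. With a cow left out, the ranges between HS and TN that crossed 0 were -0.32 to 0.57 for *EPCAM*, -1.36 to 0.87 for *KRT7*, -1.74 to 0.035 for *KRT19*, -0.11 to 1.10 for *SOX9* and -4.62 to 2.14 for *SPP1*. Between HS and PF they were -0.25 to 0.47 for *CDH1*, -1.35 to 0.72 for *KRT7*, -1.58 to 0.36 for *KRT19* and -0.92 to 0.44 for *SOX9*. Between PF and TN they were -0.51 to 0.67 for *KRT7*, -1.01 to 0.54 for *KRT19*, -0.15 to 0.55 for *KRT18* and -5.42 to 0.50 for *SPP1*. With a cow left out, *WFDC2* was at 2.00 to 2.72 between HS and TN and 2.57 to 3.57 between HS and PF. *PRAP1* was at -4.40 to -2.29 between HS and TN. Both were chosen for these differences and their groups did not overlap, so that a kept direction says nothing of stability. Depth limits *SOX9*, at 8 to 54 counts per library, and *SPP1*, at 7 to 38 counts in all but HS replicate 1 and TN replicate 2.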

Other observations

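The single list gene that edgeR called was *PRSS2*, a trypsinogen on the list of exocrine pancreas markers, at 33.9, 21.2 and 17.6 CPM in the HS replicates, 24.1, 0.447 and 0 CPM in the PF replicates and 0, 0.494 and 0 CPM in the TN replicates (log2 fold change 7.28 between HS and TN, edgeR, FDR = 0.0684). It was as high in PF replicate 1 as in the HS cows, and *WFDC2* in that cow, at 9.17 CPM, lay between the other PF cows. Of the 13 listed pancreas markers, *CPA1*, *CPB1*, *CELA2A*, *CTRB1*, *PNLIP*, *CEL* and *CLPS* had no count in any library and *PRSS1* reached 0.102 CPM at most, while *AMY2B* was counted in all 9 libraries, up to 193 CPM.

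*WFDC2* was positive within groups with 15 of 16 hepatocyte markers, with a median r of 0.53, and *PRAP1* with 1 of 16, with a median of -0.67. *KRT19* was likewise positive with 1 of the 16, with a median of -0.65. These are descriptions over the same 9 libraries, in which TN replicate 1 had the lowest hepatocyte sum, and the part of hepatocyte content was not tested.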
